A study of Macaca fascicularis with 15 samples.

Results

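Homeobox, paired-box, forkhead, T-box, SOX and ZIC genes encode transcription factors that divide the embryo and the eye into territories and later hold each cell type of the retina to its identity. The genes described here were chosen by name, from the families HOX, PAX, sine oculis, LHX, IRX, OTX, MEIS, POU, PITX, NKX, DLX, ONECUT, VSX, TBX, FOX (FOXA to FOXS), ZIC and SOX, with 2 matching genes left out by the choice itself. This gave 59 genes of the 12995 in the tables. The FOX family gave 15 of them, SOX 12, TBX 6 and POU 4. PAX, LHX and IRX gave 3 each, and the sine oculis, MEIS, NKX, DLX and ZIC families 2 each, while no HOX or ONECUT entry was present in the tables used here. The rule used names only.

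The samples came from the cynomolgus monkey (Macaca fascicularis). All animals were wild type and untreated as far as the labels say, no age is given, and each sample was prepared from 1 eye kept in RNALater. The RNA sequencing tables used here cover 11 of the series' 15 samples, namely whole eye (2), whole retina (2), central retina (4) and peripheral retina (3). The tables head the central retina libraries as macula, the region of fine sight near the visual axis. The labels do not tie the regional samples to animals. Each p-value therefore reflects the scatter of these libraries alone, part or all of which may be technical.

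In the developing eye, PAX6, sine oculis genes, LHX2 and OTX2 define the eye field and the optic vesicle, which later divides into neural retina and pigment epithelium. In the mature retina the same kinds of genes mark cell types: POU4 and IRX genes mark ganglion and bipolar cells, PAX6 and MEIS2 amacrine cells, OTX2 photoreceptors and bipolar cells, and LHX2, SOX2 and SOX9 Müller glia. FOXC1, FOXC2 and the PITX genes act in the mesenchyme around the optic cup that builds the front of the eye, and SOX10 in the neural crest, the source of melanocytes and Schwann cells.

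Values are normalized expression values with no stated unit, and absolute depth is not given. Between 171 and 501 of the 12995 genes were listed at 0 in a library. Since no scaling by gene length is stated, levels are compared between libraries and never between genes. The 5 rod markers summed to 9626 to 23733 in every group, so photoreceptor RNA was present throughout. The whole retina libraries also held high levels of genes from outside the neural retina. Their 4 pigment epithelium markers summed to 1759 and 1896, their 5 melanin markers to 493 and 504, their 3 smooth muscle markers to 499 and 598 and their 6 lens markers to 366 and 529. In the 7 regional libraries these sums were 51.7 to 446 (pigment epithelium), 12.8 to 77.8 (melanin), 2.17 to 4.36 (smooth muscle) and 1.62 to 4.83 (lens).

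The first comparison asked which factor genes differ between central and peripheral retina. Testing required a group mean of 1 or more in any of the 4 groups, and 49 of the 59 factor genes passed that minimum. Differences are of mean log2(value + 1), which understates the change of low genes. Of the 49, 10 were higher in central retina (among them POU4F3, SOX5, IRX6, IRX4, FOXN3, IRX5, SOX7, PAX6 and FOXP1) and 7 were lower (ZIC1, ZIC2, LHX9, FOXP2, MEIS1, LHX2 and OTX2), by limma with Benjamini-Hochberg adjusted p under 0.05 over all genes. That is 34.7% of the factor genes tested, beside 21.3% of all 11933 genes tested (12.5% higher and 8.76% lower). At an unadjusted p under 0.05, 11 were higher and 9 lower, beside 18.9% and 16.8% of all genes. In 12 factor genes every central library lay above every peripheral one, and in 8 every central library lay below, beside 19% and 15.6% of all genes. The median difference was 0.05 over the factor genes and −0.01 over all genes. IRX4 and POU4F3 reached the minimum only through central retina and ZIC1 reached it in peripheral but not in central retina, so these counts are given as a description. The tissue is a mixture of cells, so fewer cells of a type and less RNA per cell cannot be told apart.

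**Figure D1:**
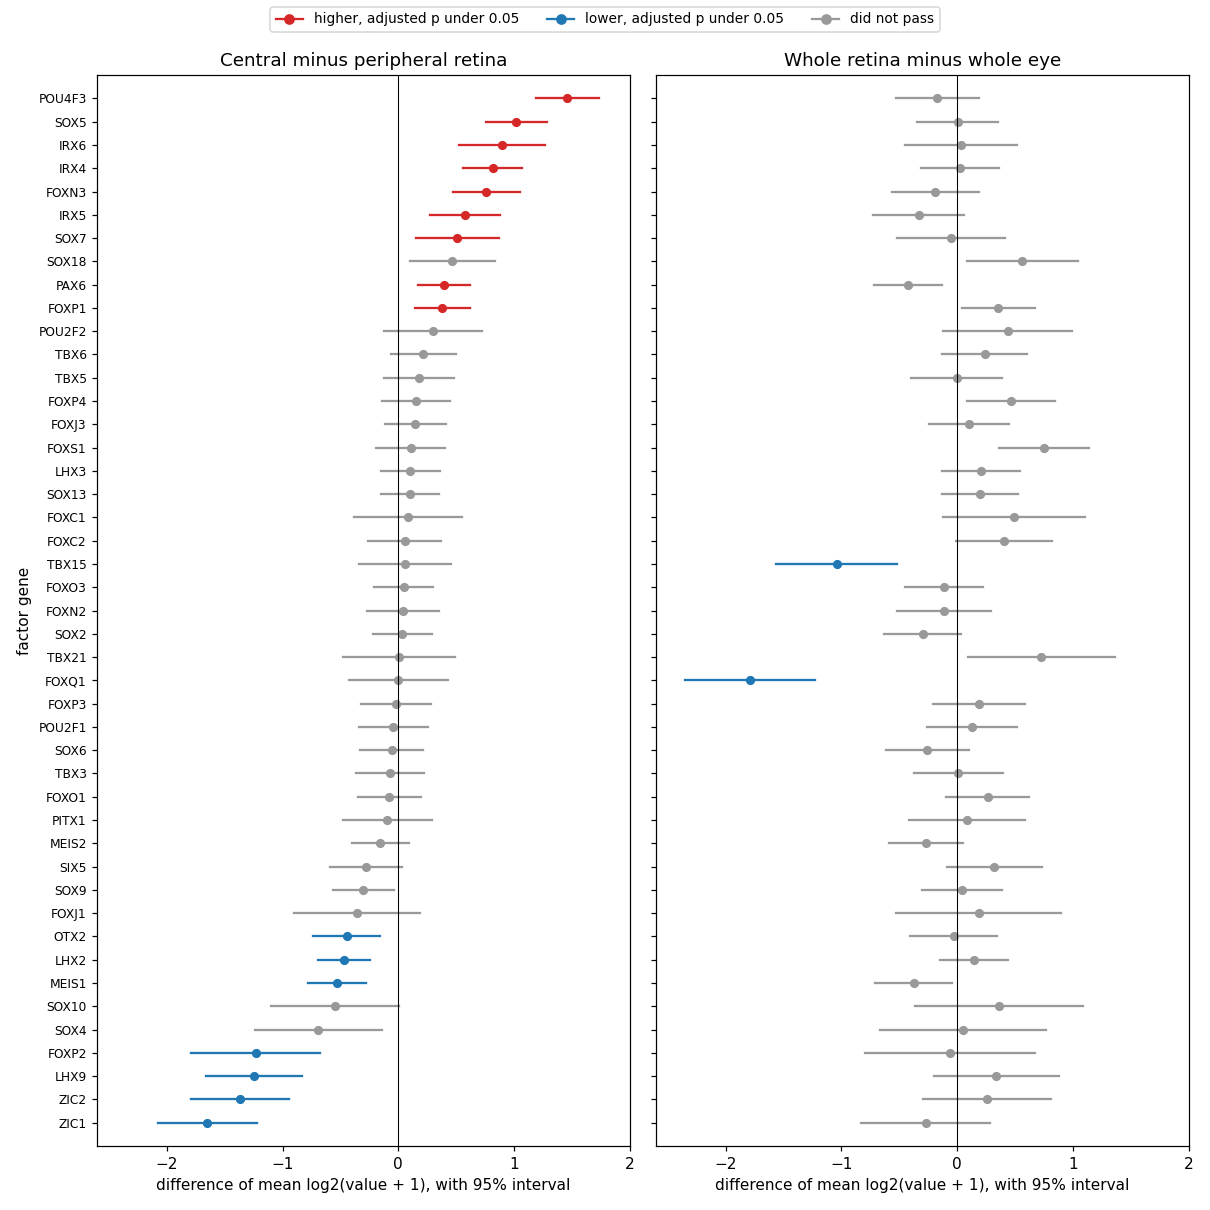
Difference of mean log2(value + 1) for 45 of the 49 tested factor genes, central minus peripheral retina (left) and whole retina minus whole eye (right), each with its 95% interval from limma. Between the regions 9 of the genes drawn lie to the right and 7 to the left with an adjusted p under 0.05, and between whole retina and whole eye only FOXQ1 and TBX15 pass.

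Several factor genes of ganglion cells, the neurons whose axons form the optic nerve, were higher in central retina. POU4F3, a POU homeobox gene of some ganglion cells and of inner ear hair cells, read 3.37, 3.55, 3.49 and 4.18 in the 4 central libraries and 0.82, 0.59 and 0.65 in the 3 peripheral ones. The groups are far apart, and each central library lay above each peripheral one. The means were 3.65 ± 0.363 (SD, n = 4) and 0.687 ± 0.119 (SD, n = 3), a ratio of 5.31, and the log2 difference was 1.46 ± 0.12 (SE, limma adjusted p = 5.43e-05).

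Neither of the octamer factor genes POU2F1 and POU2F2 passed between the regions. POU2F1, the broadly expressed octamer-binding factor gene, averaged 12.6 ± 1.83 against 12.9 ± 1.32 and did not pass (limma adjusted p = 0.85). POU2F2, an octamer factor gene known from B cells, read 0.75 to 0.89 centrally and 0.44 to 0.51 peripherally; it did not pass (limma adjusted p = 0.29), but passed with only the 2 regions in the fit (limma adjusted p = 0.00984).

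All 3 Iroquois genes in the set were higher in central retina. IRX4 read 1.12, 1.01, 0.98 and 1.45 centrally and 0.22, 0.12 and 0.30 peripherally, a ratio of means of 5.34 (log2 difference 0.82 ± 0.12 SE, limma adjusted p = 0.000687). IRX6, a homeobox gene of bipolar cells, read 4.31, 5.27, 5.43 and 7.55 against 2.81, 1.88 and 2.95, a ratio of 2.21 (log2 difference 0.90 ± 0.17 SE, limma adjusted p = 0.00367). IRX5, also known from bipolar cells, read 5.47, 7.23, 6.81 and 7.46 against 3.69, 4.19 and 4.70, a ratio of 1.61 (log2 difference 0.57 ± 0.14 SE, limma adjusted p = 0.0139). No central library overlapped a peripheral one for any of the 3, and central retina replicate 4 was the highest each time. IRX5 and IRX6 are neighbours in the RefSeq gene order of this species, with no protein-coding gene between them. The IRX5 call was lost without peripheral retina replicate 1 or 2 (limma adjusted p = 0.0611 and 0.0521).

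On a list of 15 ganglion cell factor names, 8 were tested, of which 6 were higher (among them POU4F3, IRX4, IRX5, IRX6 and FOXP1) and 1 lower (FOXP2), beside 12.5% of all genes higher and 8.76% lower. IRX4 and POU4F3 were tested only through their central level, so the count is a description. IRX5 and IRX6 also stand on a list of 7 bipolar cell factor names, of which 5 were tested, 2 were higher and 1 (OTX2) was lower. Of 2 bipolar cell markers 0 passed by limma, and their sum was 30.7 to 43.8 in central and 35.7 to 49.6 in peripheral libraries. The ganglion cell markers that are no factor genes moved the same way: 7 of 7 were higher in central retina, and their sum was 2124 to 4069 in central and 414 to 729 in peripheral libraries. Their part in the differences of the factor genes was not tested.

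PAX6, the paired-box gene needed to form an eye and kept on in amacrine and ganglion cells, read 44.2, 52.9, 46.7 and 55.0 in central and 38.6, 36.5 and 36.9 in peripheral retina. The groups did not overlap, although the central libraries spread more widely than the peripheral ones. The central mean was 1.33 times the peripheral mean (log2 difference 0.40 ± 0.10 SE, limma adjusted p = 0.0187). The call was lost without central retina replicate 4 or peripheral retina replicate 2 or 3 (limma adjusted p = 0.0516, 0.079 and 0.0584).

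SOX5, an HMG-box gene of developing neurons, read 5.25, 5.19, 5.58 and 4.67 centrally against 2.52, 1.88 and 1.76 peripherally, a ratio of 2.52 (log2 difference 1.02 ± 0.12 SE, limma adjusted p = 0.000226). Its close relative SOX6 averaged 1.39 ± 0.184 against 1.49 ± 0.245 and did not pass (limma adjusted p = 0.781). Only SOX5 of this pair passed, but whether the pair differed in response was not tested.

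Among forkhead genes, FOXN3, a repressor tied to cell cycle checkpoints, read 15.2, 19.1, 18.8 and 20.3 against 12.04, 10.3 and 8.92, a ratio of 1.76 with no overlap (log2 difference 0.76 ± 0.13 SE, limma adjusted p = 0.00203). FOXP1, a forkhead gene of many neurons, read 3.66, 3.11, 3.36 and 2.99 against 2.50, 2.32 and 2.04, also without overlap (log2 difference 0.38 ± 0.11 SE, limma adjusted p = 0.0302). The FOXP1 call was the less stable of the pair: it was lost without central retina replicate 1 or 3 or any 1 peripheral library (highest limma adjusted p = 0.104).

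The SOX genes of blood vessel lining gave 1 call. SOX7 read 2.18, 1.17, 1.97 and 2.34 centrally and 0.82, 1.41 and 0.88 peripherally (log2 difference 0.51 ± 0.16 SE, limma adjusted p = 0.0473). Central retina replicate 2 lay below peripheral retina replicate 2, so the groups overlap, and the call was lost without any 1 of 5 libraries (central 1, 3 or 4, peripheral 1 or 3; highest limma adjusted p = 0.159). SOX18 averaged 5.32 ± 0.794 against 3.55 ± 0.462 and did not pass (limma adjusted p = 0.0684), but passed with only the 2 regions in the fit (limma adjusted p = 0.0384). SOX17, under the minimum for testing, read 0.81 to 1.04 centrally and 0.39 to 0.59 peripherally. Of 5 endothelial markers 0 were higher and 1 (KDR) was lower in central retina by limma, and their sum was 30.2 to 42.5 in central and 41.6 to 61.9 in peripheral libraries. The sum mostly follows KDR, which alone read 25.55 to 36.84 in central and 36.91 to 55.53 in peripheral libraries. CDH5, PECAM1 and TEK averaged 1.22, 2.11 and 1.18 centrally against 1.02, 1.91 and 1.08. VWF averaged 0.82 against 1.16. None of CDH5, PECAM1, TEK and VWF passed by limma.

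**Figure D2:**
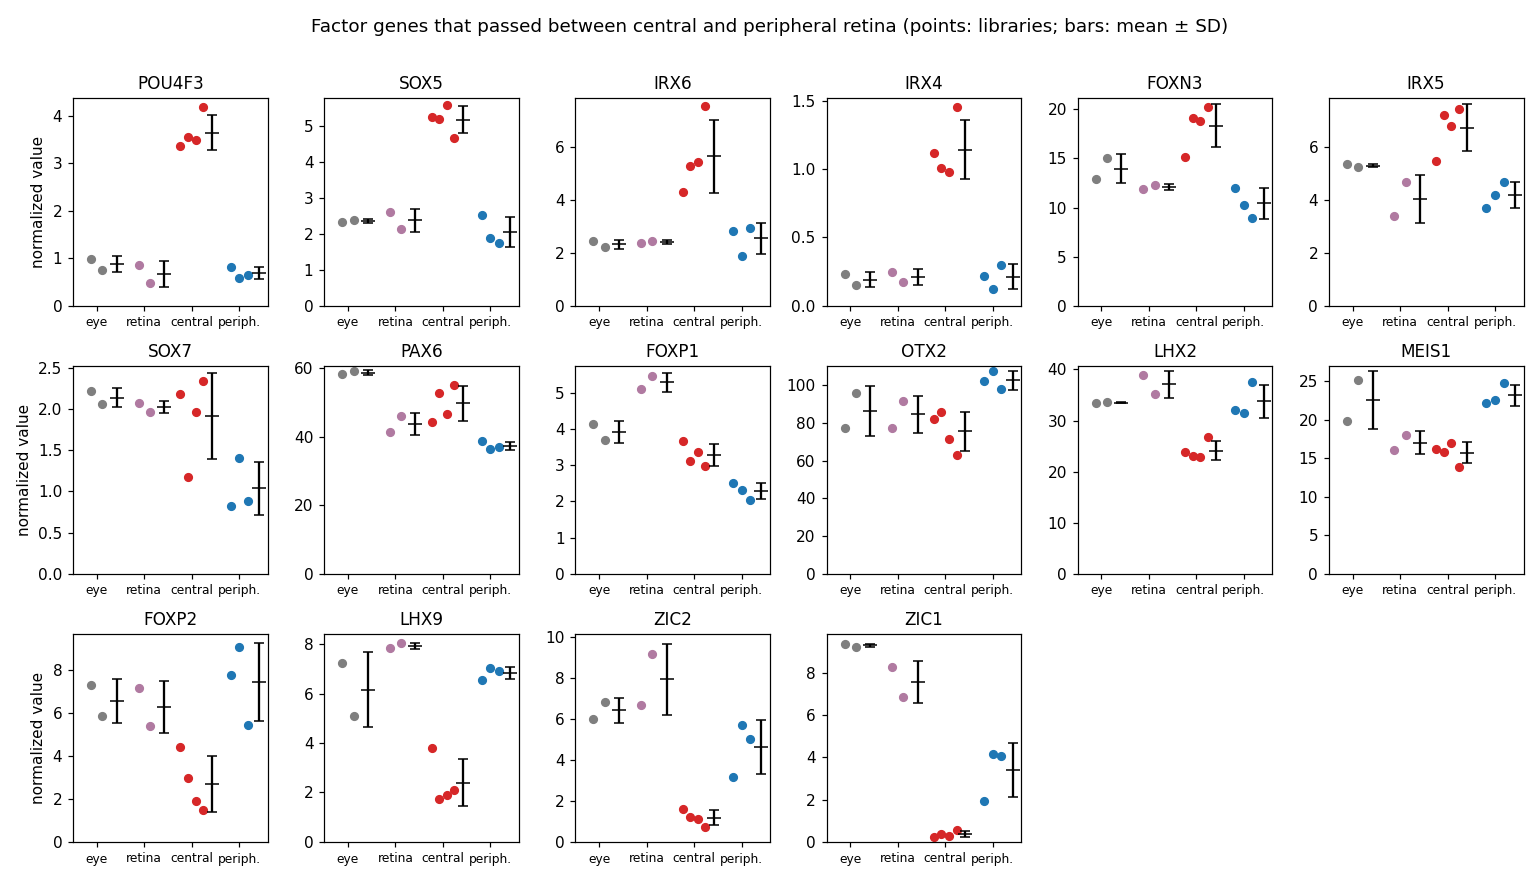
Normalized values of 16 of the 17 factor genes that passed between central and peripheral retina, in whole eye, whole retina, central retina and peripheral retina; points are libraries and bars the mean ± SD. POU4F3 and IRX4 stand highest in the central libraries and low in the 7 others, while ZIC1 and ZIC2 fall from whole tissue through peripheral to central retina.

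The zinc finger genes ZIC1 and ZIC2 were lower in central retina. ZIC1, a gene of early neural patterning, read 0.21, 0.39, 0.28 and 0.56 in central and 1.92, 4.17 and 4.08 in peripheral retina, and 6.85 to 9.35 in the 4 whole tissue libraries. The 3 levels do not overlap, with peripheral retina in the middle. The peripheral mean was 9.42 times the central mean (log2 difference −1.65 ± 0.19 SE, limma adjusted p = 0.000225).

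ZIC2, which steers uncrossed ganglion cell axons in the embryo, read 1.61, 1.21, 1.11 and 0.72 against 3.18, 5.70 and 5.00, and 5.99 to 9.16 in whole tissue. Again no central library reached a peripheral one, and the ratio of the means was 3.98 (log2 difference −1.37 ± 0.19 SE, limma adjusted p = 0.000625). The summed pigment epithelium, melanin, fibrous stroma, corneal and conjunctival, and immune markers had the same order of groups. Of 4 pigment epithelium markers 3 were lower in central retina (not RPE65, limma adjusted p = 0.185), with sums of 51.7 to 128 against 302 to 446. Of 5 melanin markers 5 were lower, with sums of 12.8 to 29.5 against 58.3 to 77.8. Of the fibrous stroma markers 2 were lower, with sums of 3.05 to 6.51 against 7.43 to 14.9. The corneal and conjunctival sums were 2.62 to 4.5 against 5.11 to 12.5, with 0 calls. The immune sums were 16.7 to 25.5 against 25.51 to 39.3, with 0 calls. The part of these tissues in the ZIC differences was not tested.

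LHX9, a LIM homeobox gene of amacrine cells, read 3.80, 1.73, 1.91 and 2.12 centrally and 6.55, 7.04 and 6.91 peripherally. Central retina replicate 1 was the highest of its group but stayed well below the peripheral libraries. The peripheral mean was 2.86 times the central mean (log2 difference −1.25 ± 0.19 SE, limma adjusted p = 0.000971).

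FOXP2, a forkhead gene of some ganglion and amacrine cells, read 4.40, 2.98, 1.92 and 1.46 centrally and 7.77, 9.06 and 5.45 peripherally. The groups did not overlap, and central retina replicate 1 was again the highest of its group. For FOXP2 the ratio of the means was 2.76 (log2 difference −1.23 ± 0.25 SE, limma adjusted p = 0.00646), opposite in sign to FOXP1 and to the other ganglion cell factor genes that passed. Of 5 tested genes on a list of 10 horizontal and amacrine cell factor names, 2 were lower (LHX9 and FOXP2) and 1 higher (PAX6), beside 8.76% and 12.5% of all genes. By comparison, 0 of 5 general amacrine cell markers passed in either direction by limma, and their sum was 119 to 144 in central and 129 to 153 in peripheral libraries.

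LHX2, MEIS1 and OTX2, genes of the optic vesicle, were lower in central retina by smaller factors. LHX2, which Müller glia keep on in the adult, read 23.9, 23.0, 22.8 and 26.7 against 32.1, 31.6 and 37.5 (log2 difference −0.47 ± 0.10 SE, limma adjusted p = 0.00852). MEIS1, a TALE homeobox partner of other homeobox proteins, read 16.3, 15.9, 17.0 and 13.8 against 22.2, 22.6 and 24.7 (log2 difference −0.53 ± 0.11 SE, limma adjusted p = 0.008). Neither gene's groups overlapped, and both calls stayed with each of the 7 regional libraries left out in turn.

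OTX2, needed for photoreceptors, bipolar cells and pigment epithelium, read 82.0, 85.8, 71.2 and 63.2 against 102, 108 and 97.9. The groups did not overlap, but the call (log2 difference −0.44 ± 0.13 SE, limma adjusted p = 0.0341) was lost without central retina replicate 3 or 4 or any 1 peripheral library (highest limma adjusted p = 0.129). In the 4 whole tissue libraries OTX2 read 77.1 to 95.8, below every peripheral library, and the summed pigment epithelium markers were 1759 to 2077. Of 5 rod markers 3 (CNGA1, PDE6A and SAG) were lower and 0 higher in central retina by limma. Their sums overlapped, at 9626 to 17239 in central and 15841.5 to 23733 in peripheral libraries. The parts of rods and of pigment epithelium in the OTX2 values were not tested.

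Of 4 tested genes on a list of 8 glial factor names, 1 was lower in central retina (LHX2) and 0 higher by limma. This share of 25% is close to the 21.3% of all genes called in either direction. In the same comparison 3 of 4 Müller glia markers were lower, with sums of 889.6 to 1153 in central and 1582 to 1828 in peripheral libraries. The part of Müller glia in the LHX2 difference was not tested. SOX9, a Müller glia gene, read 21.8, 20.4, 22.8 and 23.7 against 29.5, 23.1 and 30.7. Peripheral retina replicate 2 fell inside the central range, and the gene did not pass (log2 difference −0.30, 95% interval −0.57 to −0.04, limma adjusted p = 0.0954), though it passed without that library, under quantile normalization and with the replicate block. SOX2 averaged 16.2 ± 1.44 against 15.8 ± 0.63 (95% interval of the log2 difference −0.22 to 0.29, limma adjusted p = 0.859).

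SOX4, an HMG-box gene of young neurons and ganglion cells, read 10.6, 10.6, 9.04 and 7.47 centrally and 18.8, 20.2 and 10.1 peripherally. Peripheral retina replicate 3 stood apart from the other two and lay within the central range. SOX4 did not pass (log2 difference −0.69 ± 0.25 SE, limma adjusted p = 0.0713) and passed without that library (limma adjusted p = 0.0144).

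LHX3 and MEIS2 did not pass between the regions, with intervals that limit the difference. LHX3, a LIM homeobox gene known from pituitary and motor neurons, averaged 10.1 ± 0.729 against 9.32 ± 1.14 (95% interval of the log2 difference −0.15 to 0.36, limma adjusted p = 0.554). MEIS2, close in sequence to MEIS1, averaged 14.8 ± 1.36 against 16.6 ± 0.44 (interval −0.40 to 0.09, limma adjusted p = 0.341). In both genes the regions overlapped.

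The T-box genes TBX3 and TBX5, which pattern the dorsal optic cup and are neighbours in the RefSeq gene order, did not pass. TBX3 averaged 2.75 ± 0.218 against 2.95 ± 0.345 (limma adjusted p = 0.741) and TBX5 1.25 ± 0.2 against 0.993 ± 0.364 (limma adjusted p = 0.368). Of the 5 tested T-box genes 0 passed by limma between the regions, beside 21.3% of all genes called in either direction. At an unadjusted p under 0.05 the count was also 0, beside 18.9% of all genes higher and 16.8% lower. TBX5 and TBX6 reached the minimum for testing only through central retina, TBX15 only through whole eye and TBX21 only through whole retina. With 5 genes these counts are a description.

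The second comparison set whole retina beside whole eye. The whole retina libraries held outside tissue themselves, with smooth muscle sums of 499 and 598 against 409 and 249 in whole eye. The comparison therefore cannot show which factor genes belong to tissue outside the retina. Here 2 of 49 factor genes were lower in whole retina (FOXQ1 and TBX15) and 0 were higher by limma, beside 2.1% and 0.168% of all genes tested (2.27% in either direction). At an unadjusted p under 0.05, 5 were lower and 5 higher, beside 5.61% and 4.99% of all genes. Both whole retinas lay above both whole eyes in 15 factor genes and below in 12, beside 14% and 17.6% of all genes. Both called genes reached the minimum for testing only through whole eye. Leaving out 1 of these libraries leaves 1 library in its group, so no gene's call was judged by those fits.

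FOXQ1, a forkhead gene of epithelia, read 3.98 and 1.40 in the 2 whole eyes and was listed at 0 in the 9 other libraries (log2 difference −1.79 ± 0.26 SE, limma adjusted p = 0.00199). TBX15, a T-box gene of mesenchyme and skeleton, read 2.24 and 0.70 in the whole eyes, 0.11 and 0.17 in the whole retinas and 0.03 to 0.17 in the regions (log2 difference −1.04 ± 0.24 SE, limma adjusted p = 0.0464). The call on TBX15 was lost under quantile normalization, with only the 2 groups compared and with the replicate block. Whole eye replicate 1 was the higher of the 2 whole eyes for both genes. The 3 corneal and conjunctival markers summed to 1013 and 1276 in whole eye and 13.3 and 61.5 in whole retina, the 6 lens markers to 2728 and 2999 against 366 and 529, and the 2 skeletal muscle markers to 9.82 and 47.8 against 0.55 and 0.65. The part of these tissues in the FOXQ1 and TBX15 values was not tested.

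PAX6, which lens, cornea and iris also use, read 58.3 and 59.2 in whole eye and 41.3 and 45.9 in whole retina. The pairs did not overlap, but PAX6 did not pass (log2 difference −0.42 ± 0.13 SE, limma adjusted p = 0.217). FOXS1, a forkhead gene of vessel wall cells, went the other way, at 1.37 and 0.72 in whole eye against 2.75 and 2.07 in whole retina (log2 difference 0.75 ± 0.18 SE, limma adjusted p = 0.06). It passed without the filter on low values, under quantile normalization and without the trend, so its side of the threshold depended on the setting.

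The retinal identity genes OTX2 and LHX2 did not pass between whole retina and whole eye, and with 2 libraries a group the intervals are wide. OTX2 read 77.1 and 95.8 against 77.5 and 91.4 (95% interval of the log2 difference −0.41 to 0.35) and LHX2 33.4 and 33.5 against 39.0 and 35.2 (interval −0.15 to 0.44). Limma gave adjusted p values of 0.969 and 0.744.

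The 7 regional libraries were also set beside the 4 whole tissue libraries, without a test. In 13 of 49 tested factor genes every regional library lay below every whole tissue library (26.5%, beside 24.7% of all genes tested), and in 4 (among them LHX3, POU2F1 and SOX2) every regional library lay above (8.16%, beside 10.2%). Both shares are close to those of all genes. Among the 13 were FOXC1, FOXC2, FOXN2, FOXO1, FOXP1, PITX1, SIX5, SOX10, SOX13, TBX21, ZIC1 and ZIC2. Tissue and preparation differ between the 2 sets of libraries and cannot be told apart.

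**Figure D3:**
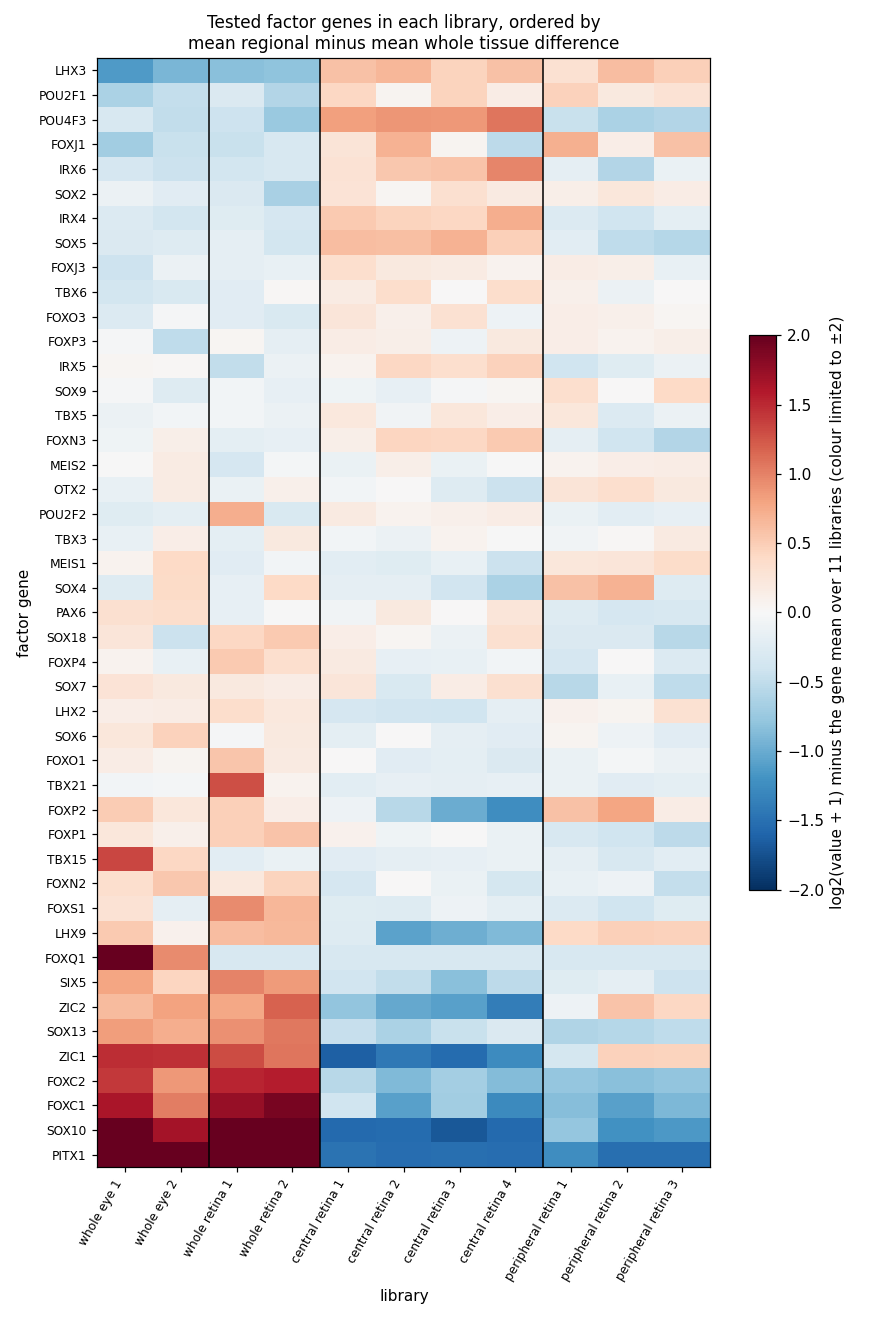
Log2(value + 1) of 45 of the 49 tested factor genes in each of the 11 libraries, minus the mean of the gene over the libraries, ordered from genes higher in the regions (top) to genes higher in whole tissue (bottom), with the colour limited to ±2. PITX1, SOX10, FOXC1 and FOXC2 are red (higher) in the 4 whole tissue libraries and blue in the regions, and the 2 whole retinas resemble the 2 whole eyes in these rows.

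SOX10, the neural crest gene, read 31.2 and 14.5 in whole eye and 37.3 and 20.6 in whole retina, against 0.52 to 0.70 centrally and 1.13 to 1.89 peripherally. The lowest whole tissue value was many times the highest regional one. Between the regions every central library lay below every peripheral one, yet SOX10 did not pass (log2 difference −0.54 ± 0.25 SE, limma adjusted p = 0.146). It passed with a pseudocount of 0.1 and with only the 2 regions in the fit.

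PITX1, a paired-like homeobox gene known from the pituitary and the hindlimb, read 19.9 and 12.2 in whole eye and 13.6 and 20.3 in whole retina. In the regions it was listed between 0 and 0.04 in central and between 0.02 and 0.22 in peripheral libraries. No regional library came near a whole tissue library.

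The mesenchyme genes FOXC1 and FOXC2 shared the pattern. FOXC1, whose loss affects the front of the eye, read 9.35 and 5.79 in whole eye and 10.2 and 11.4 in whole retina, against 0.38 to 1.53 in the regions. FOXC2 read 5.39 and 3.39, then 5.86 and 6.13, against 0.30 to 0.64. SIX5, a homeobox gene at the myotonic dystrophy locus, read 3.54 to 5.74 in whole tissue against 0.89 to 1.98. SOX13 read 5.03 to 6.58 against 1.35 to 1.99. On a list of 25 names for the front of the eye and its mesenchyme, 7 genes were tested and 5 of them (among them FOXC1, FOXC2, PITX1 and SIX5) had every regional library below every whole tissue library, beside 24.7% of all genes. FOXC1, FOXC2 and PITX1 reached the minimum only through the whole tissue groups, so this count is a description.

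The same libraries differed in non-retinal markers. The 6 fibrous stroma markers summed to 333 to 597 in whole tissue and 3.05 to 14.9 in the regions, and the 3 smooth muscle markers to 249 to 598 against 2.17 to 4.36. The part of these tissues in the factor gene levels was not tested.

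**Figure D4:**
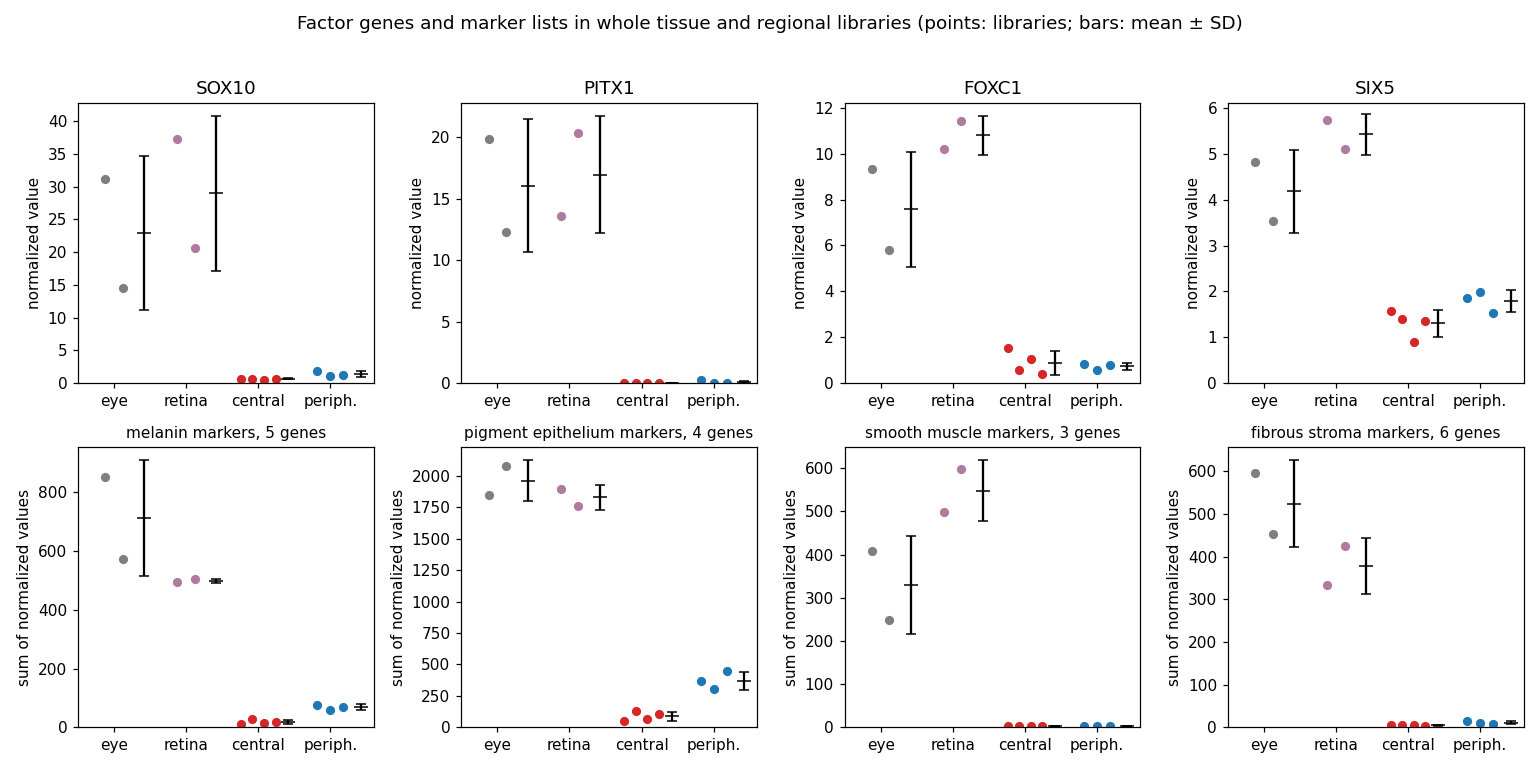
Normalized values of SOX10, PITX1, FOXC1 and SIX5 (top) and summed normalized values of 4 marker lists (bottom) in whole eye, whole retina, central retina and peripheral retina; points are libraries and bars the mean ± SD. Each of the 4 genes and each marker sum is higher in all 4 whole tissue libraries than in the 7 regional libraries.

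The opposite order held for LHX3, SOX2 and POU2F1. LHX3 read 9.09 to 10.9 centrally and 8.16 to 10.4 peripherally, against 2.38 to 3.28 in whole tissue. SOX2 read 14.3 to 17.6 in the regions and 8.51 to 12.7 in whole tissue. POU2F1 read 10.6 to 14.4 against 6.24 to 8.21. POU4F3, IRX4, IRX6, SOX5, IRX5 and FOXN3 had another pattern: every central library was above all 7 others, in which whole tissue and peripheral values overlapped. The margin was small in IRX5 (5.47 against 5.35 in whole eye) and FOXN3 (15.17 against 15.01 in whole eye). IRX4 and POU4F3 reached the minimum for testing only through central retina. The share of all genes with this pattern was not counted, so it is given as a description.

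Eye and retina factors outside these families were listed apart. Of 88 names on a list of partners and other retinal factors, 58 were in the tables and 56 were tested. Between the regions 8 were higher and 12 lower in central retina by limma (35.7% of those tested), beside the 21.3% of all genes. Of these, TSHZ2 (higher) reached the minimum for testing only through central retina, and GSX2 and MSX2 (lower) only through the whole tissue groups. The counts are therefore given as a description. RXRG, a retinoid receptor of cones, averaged 68.0 ± 13.96 in central and 28.3 ± 5.62 in peripheral retina, BARHL2, a homeobox gene of amacrine and ganglion cells, 10.2 ± 1.71 against 4.44 ± 0.511, and ZFHX3, a zinc finger homeobox gene, 8.07 ± 0.888 against 4.11 ± 0.907 (limma adjusted p = 0.000573, 0.000758 and 0.00223).

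On the lower side, NR2E1, a nuclear receptor of progenitors and Müller glia, averaged 9.84 ± 1.23 against 17.6 ± 0.295, HOPX, an atypical homeobox gene, 7.11 ± 1.74 against 13.95 ± 3.05, and NR2F1, an orphan nuclear receptor, 17.9 ± 0.519 against 27.9 ± 4.94 (limma adjusted p = 0.000552, 0.00478 and 0.00833). Between whole retina and whole eye 2 partner genes were lower and 0 higher by limma, with 4 and 3 at an unadjusted p under 0.05. The 3.57% called is close to the 2.27% of all genes called in either direction, and 5.61% and 4.99% of all genes were lower and higher at an unadjusted p under 0.05. BARX2, a homeobox gene of surface epithelium, read 4.29 and 2.54 in whole eye and 0.04 in both whole retinas, and HOPX 37.7 and 36.7 against 15.2 and 14.7 (limma adjusted p = 4.69e-05 and 0.0108). BARX2 reached the minimum for testing only through whole eye, so its call is given as a description.

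Among the remaining factor genes, FOXJ1, a gene of motile cilia, read 0.81 to 3.26 in the regions with overlap, and FOXJ3, FOXN2, FOXO1, FOXO3, FOXP3 and FOXP4 had log2 differences between −0.08 and 0.15 between the regions. None of these 7 passed either comparison by limma. TBX6, a mesoderm gene, also did not pass by limma between the regions, with a log2 difference of 0.22. The 10 factor genes under the minimum were DLX3, DLX5, FOXM1, NKX6-2, PAX4, PAX8, SOX14, SOX17, SOX21 and TBX22. PAX4, a gene of pancreatic islets, was listed at 0 in 10 of 11 libraries.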

How the data were processed

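RNA sequencing was done on whole eye, whole retina, central retina and peripheral retina. The authors deposited 1 normalized signal value per gene and library; GSNAP and HTSeq are named in the submitters' processing notes, with no version. How values were normalized, and on which genome build and annotation, is not given in the sources used here, and absolute depth is unknown, so no counting interval is given. Library sums were 299480 to 375035. Whole reads could not be recovered, since 98.1% of the values had at most 2 decimals.

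Of 13083 entries per table, 27 without a value or name and 61 exact duplicates were dropped. The 11933 genes reaching a mean of 1 in any group were fitted together with limma 3.58.1 in R 4.3.3 on log2(value + 1), with a mean-variance trend, 4 groups and 1 variance per gene. Tests were two-sided, with Benjamini-Hochberg adjustment over all genes tested and a threshold of 0.05. The fit was tested on simulated data, where it recovered part of the planted changes, and a smaller part between whole retina and whole eye than between the regions.

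All 59 symbols were found in the RefSeq gene table (T2T-MFA8v1.1), used only for neighbours. Genes named were those past the threshold, up to 12 per direction, and a set of textbook eye factors. Others were named after their values were seen. The genes and lists were chosen with earlier results of these data known. Alternatives changed the pseudocount, filter, normalization, groups in the fit, trend, replicate block and each library.

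The 4 other samples of the series carry the same source labels as the 4 whole tissue libraries and were not analysed here. The counts cover all 59 genes, but some of the genes are not reported here by name or in the figures.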

Additional observations from a re-analysis of the deposited data

Results flagged for a closer look

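SOX10 in central retina replicate 3 read 0.52, while the other 3 central libraries read 0.67 to 0.70. Its gap to the nearest library was 0.833 of the range of the group, above Dixon's critical value for 4 samples. It was the 1 such case among 48 factor genes checked in central retina, and chance flags about 1 in 20 groups.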

How the results depend on the processing

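Between central and peripheral retina, 12 of the 17 calls were kept under all alternatives that could be fitted for them and with each library left out, and 0 were reversed. The total was 13 to 17 with 1 library left out, with 7 to 10 higher and 6 to 7 lower. Requiring a mean of at least 5 left 6 higher calls, with fewer genes tested. Between whole retina and whole eye the total of 2 became 5 (1 higher, 4 lower) without a filter, 0 (0 lower) with a mean of at least 5, 1 higher and 1 lower under quantile normalization, 1 in total (1 lower) with only the 2 groups compared, and 1 higher without the trend. With 1 library left out the total was 1 to 4, with 0 to 3 higher and 1 to 3 lower. Each of those fits left 1 library in a group, so their totals are a description and no gene's call was judged by them. FOXQ1 and TBX15, with whole eye means of 2.69 and 1.47, were not in the fit that required a mean of at least 5. Without a filter DLX3 and SOX21, not tested before, passed, and so did FOXS1. The cause of the other shifts was not tested. TBX15 was lost under quantile normalization, with only the 2 groups compared and with the replicate block. FOXQ1 was called in every alternative that could be fitted for it with 2 libraries a group. Between the regions, same-numbered libraries had correlations of −0.138 to 0.357 and differently numbered ones −0.243 to 0.363. Whole retina and whole eye gave 0.19 for same numbers and −0.19 for different ones. With 2 libraries a group these are opposite by construction, so they cannot decide. The numbers were not treated as pairs, and the labels do not say whether they mark shared animals. With the replicate block the regions gave 17 calls (9 higher, 8 lower), 16 of them also in the fit without it, and whole retina against whole eye gave 1 (1 lower). Absolute depth is unknown and limits the reading of values near 0, and groups of 2 libraries give wide intervals.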

Other observations

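Whole retina replicate 1 stood apart from the other whole tissue libraries in TBX21, POU2F2 and FOXM1, which were picked after their values were seen. TBX21, a T-box gene of T and natural killer cells, read 1.89 there and 0.14, 0.15 and 0.24 in the other whole tissue libraries. POU2F2 read 1.75 against 0.40, 0.45 and 0.35, and FOXM1, a forkhead gene of dividing cells, 0.98 against 0.30, 0.28 and 0.25. The immune markers AIF1 and CD74 summed to 1179 in that library, 320.6 in whole retina replicate 2 and 229 to 298 in whole eye. FOXP3, a gene of regulatory T cells, did not stand apart, at 2.43 there and 2.29, 1.36 and 1.94 in the others. The part of immune cells in these values was not tested.

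Without the filter on low values, 4 of the 10 factor genes that were not tested passed by limma. Central retina had more SOX17 and NKX6-2 than peripheral retina (limma adjusted p = 0.0178 and 0.0368), and DLX3 and SOX21 were lower in whole retina than in whole eye (limma adjusted p = 0.013 and 0.00778). DLX3, a homeobox gene of epidermis and teeth, read 0.51 and 0.41 in whole eye and 0.10 and 0.23 in whole retina. SOX21 read 0.79 and 0.52 against 0.14 and 0.16.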
